A study of Mus musculus with 18 samples.

Results

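Cartilage owes its stiffness and resilience to a meshwork of collagen fibrils filled with proteins that are not collagens, and 10 genes for such proteins were followed here. They were taken by name from the 38243 genes counted in each library, and all 10 were found: Acan, Hapln1, Comp, Matn1, Matn3, Matn4, Ucma, Prg4, Snorc and Scrg1. RNA had been measured in 18 libraries from 6 female mouse embryos on a C57BL/6 background at embryonic day 16.5. Mandibular bone, Meckel's cartilage (MC) and mandibular condylar cartilage were cut from frozen sections with a laser. MC is the rod of cartilage along which the lower jaw forms, and condylar cartilage is the growth cartilage of the jaw joint. Sample codes shared by the 3 tissues assign 1 library of each tissue to every embryo. The embryos were 3 heterozygous Fgfr2+/S252W mice, a model of Apert syndrome that carries a point mutation in 1 copy of fibroblast growth factor receptor 2, and 3 unaffected Fgfr2+/+ littermates, written S252W and WT below.

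Aggrecan, the product of Acan, is the large proteoglycan of cartilage: its chains of chondroitin sulfate hold water, and it is anchored in numbers along threads of hyaluronan. Link protein, the product of Hapln1, locks aggrecan to hyaluronan. Comp (a thrombospondin), the matrilins Matn1, Matn3 and Matn4 and the collagen fibrils are tied to one another by adaptor contacts, Prg4 encodes lubricin, the lubricant of joint surfaces, and Ucma encodes a small secreted protein of cartilage. Snorc is a small membrane proteoglycan of chondrocytes, and Scrg1 encodes a small secreted protein found in cartilage as well as in nervous tissue. In growth cartilage most of these genes mark chondrocytes that build matrix, whereas bone cells make a matrix of type I collagen.

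The counts are sums over all annotated exons of each gene. On GRCm38, Acan (ENSMUSG00000030607) lies at chr7:79053483-79115099, Hapln1 (ENSMUSG00000021613) at chr13:89540636-89611832, Comp (ENSMUSG00000031849) at chr8:70373548-70382065 and Snorc (ENSMUSG00000026258) at chr1:87470264-87475459. The matrilins lie at chr4:130944385-130955475 for Matn1 (ENSMUSG00000040533), chr12:8947929-8972028 for Matn3 (ENSMUSG00000020583) and chr2:164389393-164405160 for Matn4 (ENSMUSG00000016995). Ucma (ENSMUSG00000026668) lies at chr2:4976122-4985748, Prg4 (ENSMUSG00000006014) at chr1:150449412-150466165 and Scrg1 (ENSMUSG00000031610) at chr8:57455923-57477585. Exons of Matn4 overlap those of Rbpjl, and exons of Prg4 overlap those of Tpr. Strand was not used in counting, and fragments shared by 2 genes were dropped, so the counts of these members cover less than their whole exons.

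Promoter sequence was at hand for 6 of the 10 genes (RefSeq, GRCm38.p6), and 3 windows of 250 bases that end just before the RefSeq transcription start are shown. For Hapln1 and Matn1 that start is also the first base of the counted gene, while for Acan it lies upstream of the start of the counted gene given above. Acan and Hapln1 are shown because their products bind each other while their levels parted in MC, and Matn1 because it was the most variable of the matrilins in MC. Capitals mark the letters ACAAT (the core bound by SOX proteins) and GGGCGG (a GC box) on either strand, so that GGGCGG on the other strand reads CCGCCC. The windows lie at chr7:79052976-79053225, chr13:89540386-89540635 and chr4:130944135-130944384, all on the plus strand.
Acan: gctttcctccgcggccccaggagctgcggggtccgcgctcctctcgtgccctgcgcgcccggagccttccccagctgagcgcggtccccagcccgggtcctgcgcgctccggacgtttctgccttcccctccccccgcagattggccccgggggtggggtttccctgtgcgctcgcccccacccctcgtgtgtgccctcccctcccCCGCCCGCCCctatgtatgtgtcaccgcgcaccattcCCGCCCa
Hapln1: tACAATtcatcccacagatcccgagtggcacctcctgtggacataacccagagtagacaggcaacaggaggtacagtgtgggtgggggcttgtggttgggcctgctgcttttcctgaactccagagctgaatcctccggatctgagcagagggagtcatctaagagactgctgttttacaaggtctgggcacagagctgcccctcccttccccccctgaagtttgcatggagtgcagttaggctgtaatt
Matn1: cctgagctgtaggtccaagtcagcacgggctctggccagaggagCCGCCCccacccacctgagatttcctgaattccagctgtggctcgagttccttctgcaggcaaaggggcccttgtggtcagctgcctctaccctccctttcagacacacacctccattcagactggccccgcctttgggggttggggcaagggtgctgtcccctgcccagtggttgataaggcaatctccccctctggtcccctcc
The Acan window was rich in G and C (74.4% of bases) and held 3 GC boxes, of which 2 overlap by 2 letters. The Hapln1 window (54.4% G and C) held no GC box and 1 SOX core, and the Matn1 window (62%) held 1 GC box and no SOX core. None of these 3 windows held TATAAA. Among all 32851 windows of the same length, 32.7% held a GC box, 27.7% the SOX core and 12.4% TATAAA, so that each of these matches is common.

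Library totals ranged from 8218548 to 15585778 fragments assigned to genes. The 10 genes together took 0.005 to 0.00875% of the fragments in bone, 0.0127 to 0.0878% in MC and 1.02 to 1.69% in condylar cartilage. Levels are given as FPKM, fragments scaled by exon length and normalized library size, which allows genes to be compared with one another. In MC, transcripts of the ribosomal RNA repeat (counted as Gm42418) took 24.1 to 39.4% of fragments against 5.58 to 9.33% in bone and 10.9 to 20.2% in condylar cartilage. Fgfr2 was at 36.9 to 53.4 FPKM in bone, 48.8 to 108 in MC and 19.1 to 28.8 in condylar cartilage, a level that does not check which allele was carried.

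The tissue labels were compared with defining markers before the members were read. Col2a1, the main collagen of cartilage, was at 3787 to 4988 FPKM in condylar cartilage, at 7.31 to 60.6 in bone and at 41.6 to 1410 in MC. The MC library of WT replicate 1 stood apart: its Col2a1 was 41.6 FPKM, inside the range of bone, whereas the other 5 MC libraries had 306 to 1410. That library also had the most Ibsp of the MC libraries (111 against 0.905 to 4.65 FPKM), an osteoblast gene, and the most Alpl (116 against 6.23 to 62.8). Bone held more of both, 1715 to 3433 FPKM of Ibsp and 159 to 229.7 of Alpl. Of the other osteoblast markers, Col1a1, Col1a2, Sp7, Runx2 and Phex were also highest of MC in that library. Dmp1, Bglap and Bglap2 had no fragment in it. Its normalized library size was 1.08 times its total against 0.488 to 0.727 in the other MC libraries. The 7 chondrocyte markers summed to 201 to 354 FPKM in bone, 154 to 2146 in MC and 5383 to 6569 in condylar cartilage, with none of the 7 at 0 in any library. The 10 osteoblast markers summed to 6202 to 12922 in bone, 477 to 1192 in MC, where up to 3 were at 0, and 2067 to 7488 in condylar cartilage. In condylar cartilage, replicate 3 of each genotype had the most Col10a1, a collagen of hypertrophic chondrocytes (1343 and 993 FPKM against 334 to 705 in the other 4). These marker levels move with the tissues and with single libraries, their part in the results below was not tested, and in bulk tissue fewer chondrocytes and less RNA per chondrocyte cannot be told apart.

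Aggrecan rose stepwise from bone to MC to condylar cartilage. Acan was at 0.928, 0.509 and 0.622 FPKM in WT bone (replicates 1, 2 and 3) and at 0.397, 0.217 and 0.0291 in S252W bone. In MC it was at 13.3, 31.6 and 41 FPKM in WT and at 123, 24.9 and 24 in S252W. Every MC library thus lay above every bone library, and WT replicate 1 was the lowest and S252W replicate 1 the highest of the 6. In condylar cartilage Acan was at 475, 425 and 683 FPKM in WT and at 391, 383 and 566 in S252W, above every MC library. Tested within embryos with limma, Acan was higher in MC than in bone by 5.32 on the log2 scale in WT (SE 0.64, 40-fold, adjusted p = 2.09e-05) and by 7.94 in S252W (SE 0.92, adjusted p = 8.18e-06). Against condylar cartilage, Acan in MC was lower by a log2 change of -4.34 in WT (SE 0.63, adjusted p = 3.08e-05) and -3.40 in S252W (SE 0.92, adjusted p = 0.00588), 20.3 and 10.6 times lower. Without the MC library of WT replicate 1, the WT changes were 5.73 against bone and -3.88 against condylar cartilage, and both still passed. Without the MC library of S252W replicate 1, the S252W changes were 7.02 and -4.22. The S252W change against condylar cartilage was also -4.25 without condylar replicate 1 and -2.81 without condylar replicate 3, and that against bone 7.35 without bone replicate 3, where all 3 still passed. With no filter on low genes, the S252W change against condylar cartilage was -2.94 and missed the threshold (adjusted p = 0.138).

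**Figure D1:**
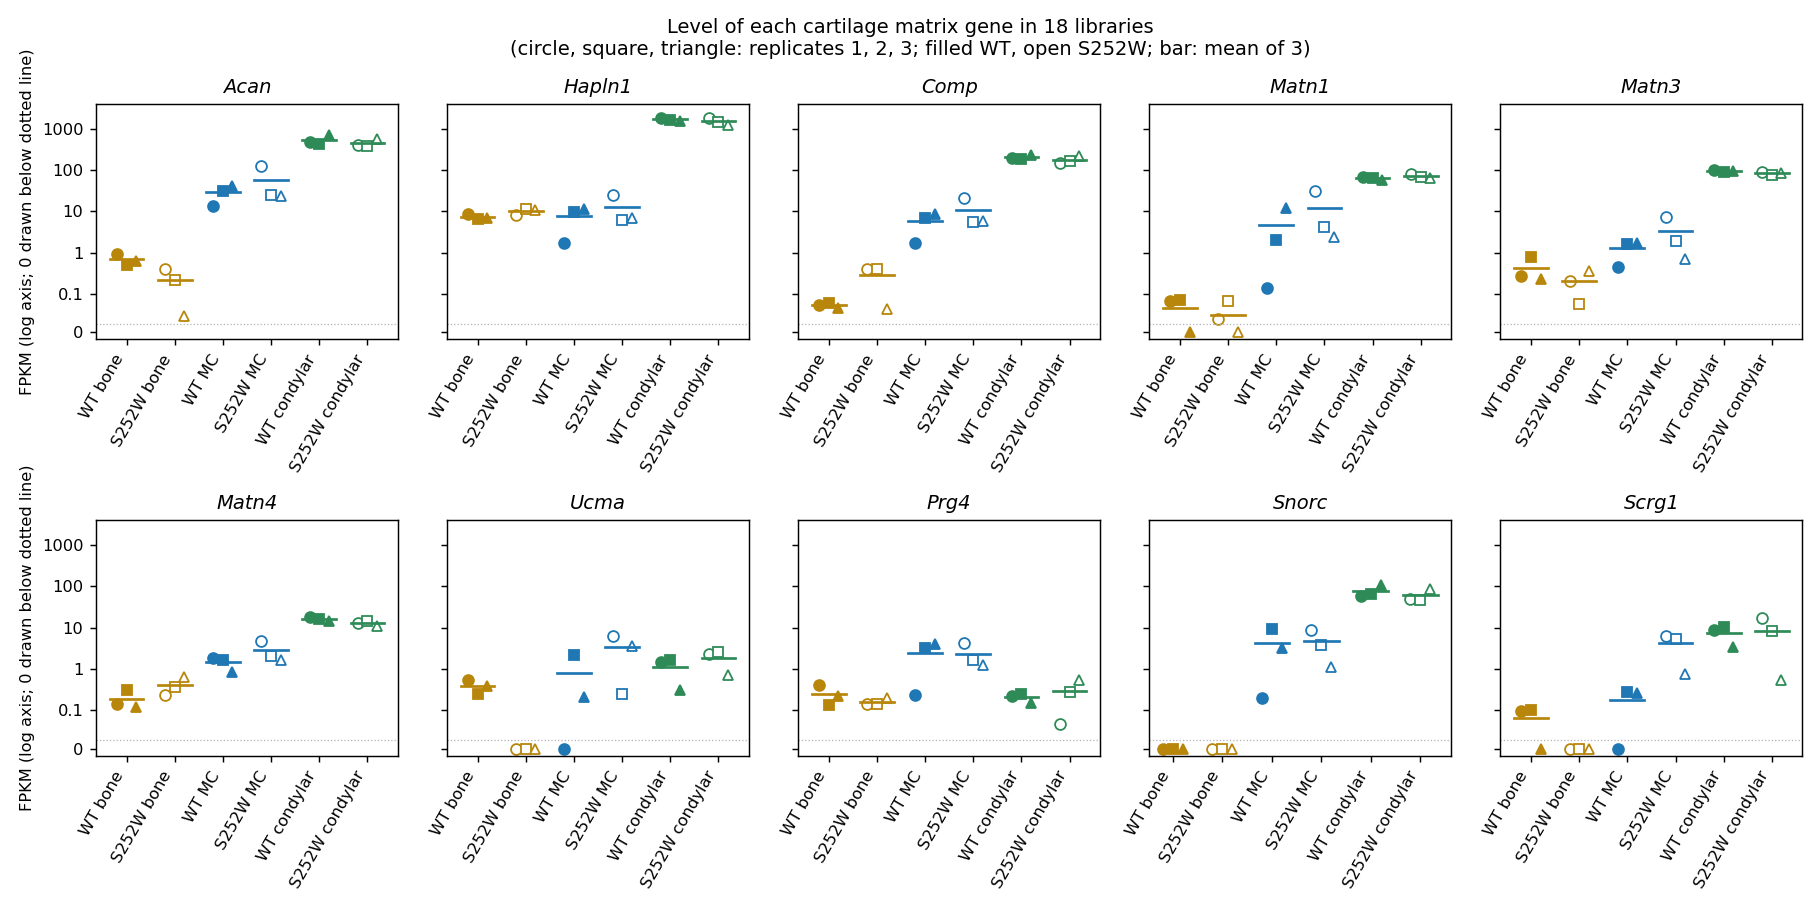
Level of each of the 10 genes in FPKM (vertical, log axis, with 0 drawn below the dotted line) in the 6 groups of genotype and tissue; each point is a library, filled in WT and open in S252W, and the bar is the mean of 3. The means of Acan, Comp, the matrilins and Snorc are lowest in bone and highest in condylar cartilage, with libraries of Matn3 overlapping between bone and MC in WT, Hapln1 overlaps between bone and MC, and Prg4 is highest in MC.

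Link protein did not follow aggrecan into MC. Hapln1 was the most abundant of the 10 genes in condylar cartilage, at 1773, 1651 and 1555 FPKM in WT and 1833, 1453 and 1253 in S252W. In MC it was at only 1.69, 9.73 and 11.1 FPKM in WT and 24.8, 6.15 and 6.92 in S252W. Bone held as much, with 8.76, 6.37 and 6.95 FPKM in WT and 8.3, 11.1 and 10.7 in S252W. The MC and bone libraries overlapped in both genotypes, and within embryos Hapln1 was higher in MC in 3 of 6. The MC to bone difference was -0.39 on the log2 scale in WT (95% interval -1.48 to 0.69, adjusted p = 0.594) and 0.2 in S252W (-0.78 to 1.17, adjusted p = 0.776). Without the MC library of WT replicate 1 the WT estimate turned to 0.58 (adjusted p = 0.264), and without that of S252W replicate 1 the S252W estimate turned to -0.61 (adjusted p = 0.46). From MC to condylar cartilage the step was the widest of the 10 genes in both genotypes, 307 times in WT (log2 change -8.26, SE 0.48, adjusted p = 3.39e-09) and 133 times in S252W (log2 change -7.06, SE 0.44, adjusted p = 6.14e-09). The sizes rest on single libraries: the WT change was -7.27 without WT MC replicate 1 and the S252W change -7.84 without S252W MC replicate 1.

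The ratio of link protein to aggrecan transcript therefore separated the 3 tissues. Hapln1 exceeded Acan in all 6 condylar libraries, by 2.21 to 4.69 times, and in all 6 bone libraries, where Acan was near or below 1 FPKM. In MC the order was turned round: Acan exceeded Hapln1 in all 6 libraries, by 7.87, 3.25 and 3.7 times in WT and 4.97, 4.06 and 3.46 times in S252W. The library of WT replicate 1, with the least Col2a1, had the highest Acan to Hapln1 ratio of the 6. Within embryos, log2 of Hapln1 over Acan was lower in MC than in condylar cartilage by a mean difference of -3.84 ± 0.78 (SD, n = 6 embryos), a factor of 14.3, and lower in 6 of 6. Without the embryo of WT replicate 1 the mean was -3.63 ± 0.65 (SD, n = 5). The ratio was chosen after the levels had been seen, so these values are a description with no test.

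**Figure D2:**
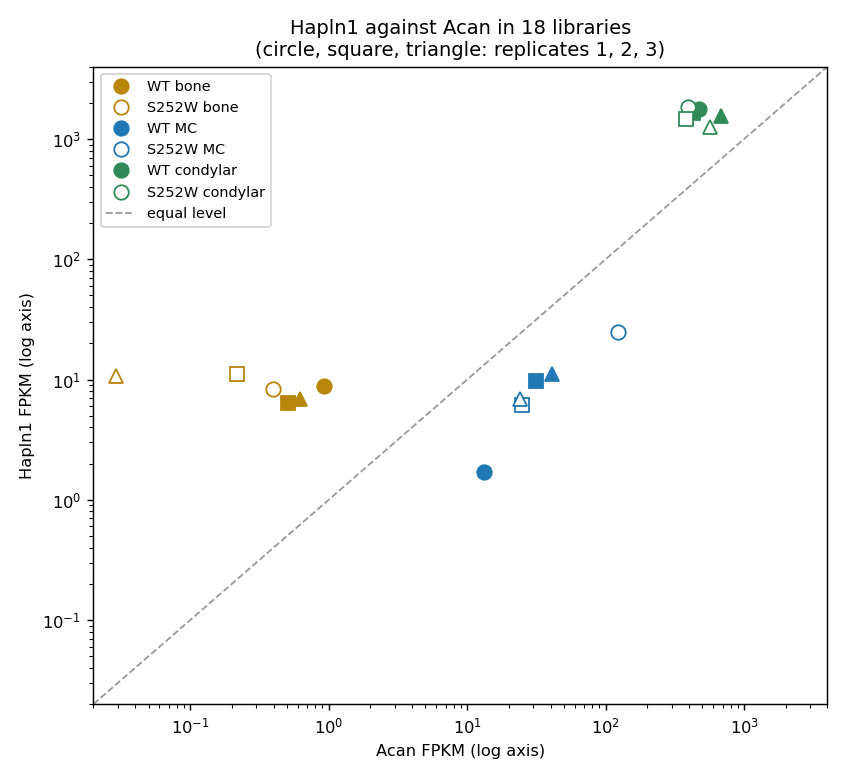
Hapln1 against Acan in FPKM (both axes log) in the 18 libraries, coloured by tissue, filled in WT and open in S252W, with the dashed line where the levels are equal. The 6 MC libraries lie below the line, between 1.69 and 24.8 FPKM of Hapln1, and the bone and condylar libraries lie above it.

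Relative to Col2a1, the same contrast was seen. In condylar cartilage Hapln1 was at 25.1 to 43.8% of the Col2a1 level, and in MC at 1.76 to 4.07%. Acan was at 9.36 to 14.6% of Col2a1 in condylar cartilage and at 6.52 to 8.74% in 5 of the MC libraries, with 32% in WT replicate 1, where Col2a1 was low. These shares are descriptions and were not tested.

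The adaptor proteins of the collagen fibrils took the same order as aggrecan, at lower levels. Comp was at 1.69, 6.71 and 8.66 FPKM in WT MC and at 20.4, 5.48 and 5.7 in S252W MC. In bone no library exceeded 0.402 FPKM (2 to 22 fragments), and condylar cartilage held 148 to 225 FPKM. Comp was higher in MC than in bone by 6.09 on the log2 scale in WT (SE 1.28, adjusted p = 0.00192) and 5.36 in S252W (SE 0.92, adjusted p = 0.000292), and lower than in condylar cartilage by 45.3 and 16.6 times (adjusted p = 0.00172 and 0.00138). The groups of the 3 tissues did not overlap in either genotype. WT bone had 6 Comp fragments in all, so its fold depends on few counts. Without WT MC replicate 1 the WT changes were 6.82 against bone and -4.76 against condylar cartilage on the log2 scale (main values 6.09 and -5.5), and without WT condylar replicate 1 the latter was -4.8. In S252W, where the main values were 5.36 and -4.05, they were 4.4 and -5.05 without MC replicate 1, 4.54 against bone without bone replicate 3, and -4.99 against condylar cartilage without condylar replicate 1. All of these passed.

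Matrilin 1 varied most between MC libraries. Matn1 was at 0.139, 2.01 and 12.2 FPKM in WT MC, from 3, 21 and 130 fragments, and at 30.3, 4.28 and 2.36 in S252W MC. WT replicate 1 was thus barely above bone, where no library had more than 3 fragments and 2 had none (4 fragments in all in each genotype), so that its changes against bone depend on few counts. In condylar cartilage the 6 libraries were close together, at 55.6 to 81.7 FPKM. Matn1 was higher in MC than in bone in WT (log2 change 5.25, SE 1.91, adjusted p = 0.0445) and in S252W (8.11, SE 1.76, adjusted p = 0.00193). It was lower in MC than in condylar cartilage in WT (-5.23, SE 1.82, adjusted p = 0.0262), and in S252W the difference of -2.84 (95% interval -6.5 to 0.82) did not pass (adjusted p = 0.198). Both marginal calls depended on the fit. Without the replicate block, Matn1 in MC against bone in WT missed the threshold (4.54, adjusted p = 0.0869) and Matn1 in MC against condylar cartilage in S252W passed (-3.21, adjusted p = 0.000344). The S252W difference to condylar cartilage also passed with edgeR's test (-3.25, adjusted p = 0.00429) and with DESeq2 (-3.32, adjusted p = 0.0194). Without the MC library of WT replicate 1, the WT step to condylar cartilage was -3.64 and no longer passed (adjusted p = 0.0808), and it was lost likewise without WT bone replicate 1 (-4.72), WT condylar replicate 1 (-3.95) or WT MC replicate 2 (-5.36). The WT call against bone was lost in 9 of the 18 fits that left out a library, with changes of 3.41 to 6.73 over all 18 (adjusted p from 0.00347 to 0.175). The WT step to condylar cartilage passed at -4.46 without WT bone replicate 3, -6.82 without WT MC replicate 3 and -6.2 without WT condylar replicate 3. In S252W the change against bone was 6.59 without MC replicate 1 and 8.88 without bone replicate 2, and passed in both.

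Matn3 and Matn4 were lower in MC than in condylar cartilage by larger and smaller steps. Matn3, mutated in some forms of epiphyseal dysplasia, was at 75 to 99.1 FPKM in condylar cartilage, at 0.462 to 7.4 in MC and at 0.0588 to 0.779 in bone. It failed the filter on low levels that was used for the main fit, as did Ucma, Prg4 and Scrg1, and for these 4 genes the values come from the same model over the 14881 genes of edgeR's filterByExpr. In MC against condylar cartilage, Matn3 differed by -6.51 in WT (SE 0.8, adjusted p = 5.97e-06) and -4.92 in S252W (SE 0.84, adjusted p = 0.000146). The WT change was -5.92 without WT MC replicate 1, and the S252W change was -6.33, -4.21 and -5.89 without MC replicate 1, MC replicate 3 and condylar replicate 1, all of which passed. Against bone it was higher in S252W MC (3.98, SE 0.89, adjusted p = 0.0023), and the WT difference of 1.46 (95% interval -0.4 to 3.32) did not pass (adjusted p = 0.225). The S252W call rested on replicate 1, since without its MC library the change was 2.57 (adjusted p = 0.0509), while without bone replicate 3 it was 4.69. Matn4 was at 11.3 to 18 FPKM in condylar cartilage, 0.871 to 4.74 in MC and 0.119 to 0.633 in bone, and MC and bone did not overlap. Matn4 in MC was higher than in bone by 2.99 in WT (SE 0.66, adjusted p = 0.00258) and 2.84 in S252W (SE 0.52, adjusted p = 0.000522). It was lower than in condylar cartilage by 10.6 and 4.57 times (adjusted p = 0.000224 and 0.00138). Without S252W MC replicate 1 the S252W changes were 2.2 against bone and -2.8 against condylar cartilage (main value -2.19), and both passed.

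Snorc was counted in every cartilage library and in no bone library. Its 0 fragments in each of the 6 bone libraries allow up to 3 fragments per library, or 0.476 FPKM in the shallowest WT bone library. In MC it was at 0.201, 9.52 and 3.25 FPKM in WT and at 8.97, 3.9 and 1.14 in S252W, from 1 to 31 fragments. The MC libraries thus had few counts, and WT MC replicate 1, with 1 fragment, lies inside the limit that bone allows. S252W MC replicate 3 had 3 fragments, no more than a library of 0 allows. In condylar cartilage it reached 58.4, 66.2 and 108 FPKM in WT and 48.7, 47.6 and 88.3 in S252W, and replicate 3 was the highest in each genotype. Against the limit that 0 fragments allow in each bone library, the mean was at least 182-fold higher in WT condylar cartilage, at least 191-fold higher in S252W condylar cartilage, and at least 10.2-fold and 14.5-fold higher in WT and S252W MC. The MC bounds were 4.05 without WT MC replicate 2 and 7.8 without S252W MC replicate 1. The MC to condylar difference was -4.9 in WT (SE 1.25, adjusted p = 0.00402) and -3.78 in S252W (SE 1.23, adjusted p = 0.0184). The WT change was -3.81 without MC replicate 1, -6.2 without MC replicate 2, -4.16 without condylar replicate 1 and -5.85 without condylar replicate 2, and the S252W change was -4.84 without MC replicate 1 and -4.61 without condylar replicate 1, all of which passed. The S252W call was lost without the MC library of replicate 3 (-2.87, adjusted p = 0.0668) or the condylar library of replicate 3 (-3.05, adjusted p = 0.0565).

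Scrg1 was counted mostly in condylar cartilage in WT embryos and also in S252W MC. WT MC had 0, 1 and 1 fragments, and S252W MC had 33, 17 and 3, or 6.3, 5.47 and 0.75 FPKM. Bone held at most 1 fragment per library. The condylar libraries were at 8.8, 10.3 and 3.35 FPKM in WT and 16.8, 8.23 and 0.55 in S252W, so that replicate 3 was the lowest in each genotype. In WT, condylar cartilage had 57.1 times the MC level (95% counting interval 15.6 to 475, from 195 and 2 fragments), and limma called the difference (adjusted p = 0.00129). Without WT MC replicate 1 the ratio was 28.3 (7.72 to 235) and the call held (adjusted p = 0.00805), and without WT MC replicate 2 or 3 it was 86.2 and 85.6. In S252W, the MC and condylar libraries overlapped, and the difference of -1.02 (95% interval -3.11 to 1.08) did not pass (adjusted p = 0.426). Against S252W bone, where no fragment was counted, the mean was at least 19.6-fold higher in S252W MC and at least 40.1-fold higher in S252W condylar cartilage. The second bound was 20.6 without condylar replicate 1, and replicate 3 of each tissue had 3 fragments, no more than a library of 0 allows.

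Ucma, expressed by chondrocytes of resting zones in other growth cartilages, was low everywhere. It was at 1.45, 1.69 and 0.306 FPKM in WT condylar cartilage and 2.35, 2.63 and 0.726 in S252W, from 3 to 31 fragments, again with replicate 3 lowest in each genotype. In MC it was at 0, 2.16 and 0.212 FPKM in WT and 6.35, 0.255 and 3.56 in S252W, as high as in condylar cartilage, and the cartilages overlapped in both genotypes. Their difference was -1.55 in WT (95% interval -3.97 to 0.87, adjusted p = 0.29) and 0.6 in S252W (-2.11 to 3.31, adjusted p = 0.732). WT bone had 3 to 7 fragments, and the difference of MC from it was -0.04 in limma (adjusted p = 0.987). That estimate was 1.52 without WT MC replicate 1 (adjusted p = 0.328), and it was above 0 with edgeR's test (0.2) and DESeq2 (0.06) as well. No Ucma fragment was counted in S252W bone, and S252W MC was at least 20.1-fold and S252W condylar cartilage at least 11.3-fold higher than the limit this allows. The bound for MC was 11.3 without replicate 1, and replicate 2 had 1 fragment, within the 3 that a library of 0 allows.

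Lubricin ran against the order of the others. Prg4 was at 0.239, 3.26 and 4.03 FPKM in WT MC and at 4.15, 1.68 and 1.27 in S252W MC. Condylar cartilage held 0.228, 0.252 and 0.148 FPKM in WT and 0.0469, 0.281 and 0.539 in S252W, and bone held 0.137 to 0.406. In S252W every MC library lay above every bone and condylar library, while in WT replicate 1 of MC lay among them. Prg4 was higher in MC than in condylar cartilage by 2.8 in WT (SE 1, adjusted p = 0.0309) and 3.27 in S252W (SE 1.03, adjusted p = 0.0156), and higher than in bone by 2.78 (SE 0.88, adjusted p = 0.0247) and 3.53 (SE 0.89, adjusted p = 0.00512). Condylar cartilage and bone did not differ detectably (-0.01, 95% interval -2.3 to 2.28 in WT, and 0.27, -2.12 to 2.65 in S252W). The WT calls did not hold without the replicate block (2.22, adjusted p = 0.0952 against condylar cartilage, and 2.08, adjusted p = 0.107 against bone). Without WT MC replicate 2 or 3 they were lost as well (2.16 and 1.87 against condylar cartilage, 2.08 and 1.86 against bone). Leaving out replicate 2 or 3 of WT condylar cartilage (2.67 and 2.13) or of WT bone (2.08 and 2.29) had the same effect on the comparison with that tissue. With no filter on low genes the WT change against condylar cartilage was 2.74 and missed the threshold (adjusted p = 0.0534). The WT changes were larger without bone replicate 1 (3.96 against bone) or condylar replicate 1 (3.64 against condylar cartilage). Without WT MC replicate 1 the changes were 4.24 and 4.03 (adjusted p = 0.000457 and 0.000401). The S252W calls were lost without MC replicate 1 (2.07, adjusted p = 0.147 against condylar cartilage, and 2.65, adjusted p = 0.0607 against bone), and the first also without condylar replicate 1 (2, adjusted p = 0.158). Without MC replicate 3 they were 3.91 and 4.36, and the first was 4.16 without condylar replicate 3.

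Gdf5, a growth factor that marks forming joints, was looked at beside Prg4 as a marker of the superficial joint zone. It was at 0.24, 12.1 and 5.25 FPKM in WT MC and 13.2, 6.6 and 3.77 in S252W MC, and at no more than 0.289 in any bone or condylar library. Like Prg4, Gdf5 was near the level of the other tissues in MC of WT replicate 1. The other markers of that list, Erg and Creb5, overlapped between MC and condylar cartilage in both genotypes, with Erg at 8.55 to 30.6 FPKM in MC and 13.7 to 23.5 in condylar cartilage.

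**Figure D3:**
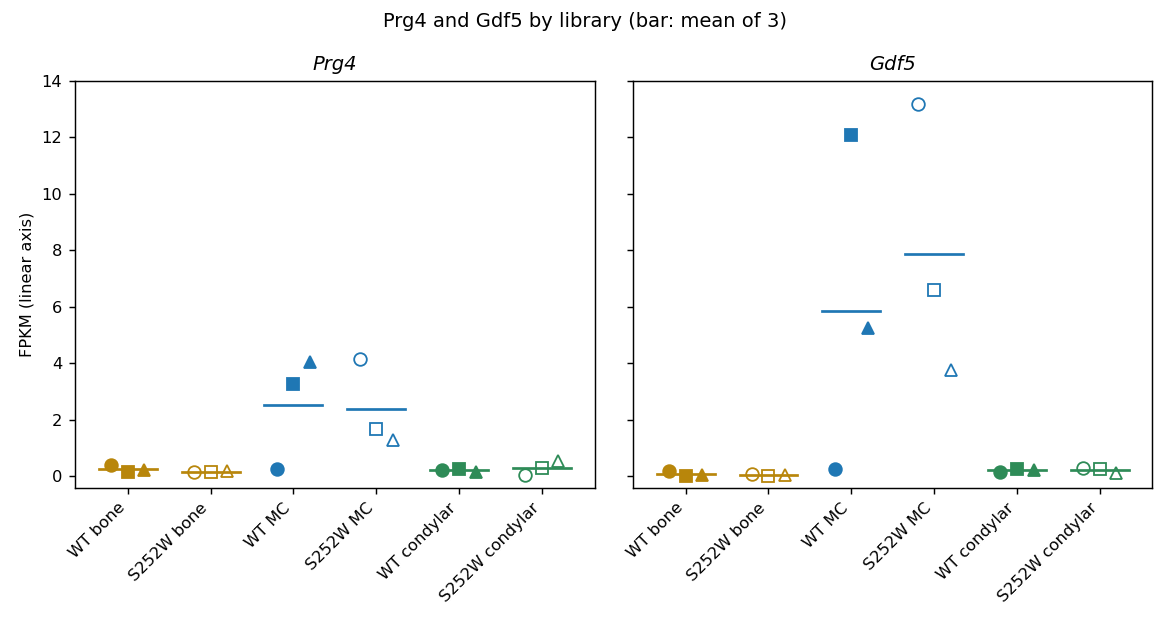
Prg4 and Gdf5 in FPKM (linear axis) in the 6 groups, each point a library and each bar the mean of 3. Of the MC libraries 5 stand above bone and condylar cartilage for both genes, and WT replicate 1 (filled circle) lies with the other tissues at 0.239 and 0.24 FPKM.

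Counted over the members, the tissue contrasts were one-sided apart from Prg4. Of the 6 members in the main fit, 5 passed as higher in MC than in bone in WT and 5 in S252W, beside 15.9% and 18.2% of the 11469 genes tested. All 6 passed as higher in condylar cartilage than in bone in both genotypes, beside 17% and 14.5% of all genes. In MC against condylar cartilage 6 were lower in WT and 5 in S252W, beside 22.7% and 22.5% of all genes. The median log2 difference of the 6 was 5.19 and 5.82 in MC against bone, 9.84 and 9.74 in condylar cartilage against bone and -5.06 and -3.59 in MC against condylar cartilage, while the medians over all genes tested lay between -0.01 and 0.02. The medians against bone include fitted changes of Snorc, which had no fragment in bone, and with Snorc at the bound its 0 fragments allow they were 4.29 and 4.61 for MC and 8.77 and 8.5 for condylar cartilage. Hapln1 was over 1 FPKM in all 18 libraries, and the filter kept the other 5 through the libraries in which they were high, so the counts are a description. In the fit that kept all 10, 6 and 9 members were higher in MC than in bone (background 14.5% and 17.9%), and 8 and 9 in condylar cartilage than in bone (17.3% and 15%). Members with almost no fragments in bone, such as Snorc and Scrg1, entered this fit too through the libraries in which they were high. The counts of this fit are therefore a description as well. Between MC and condylar cartilage, 8 and 6 were lower in MC (background 21.8% and 21.8%) and 1, Prg4, was higher (22.7% and 23.3%). Libraries did not overlap between tissues for 5 and 9 of the 10 members as higher in MC than in bone (18.3% and 26.9% of all genes in that fit), for 8 and 9 as higher in condylar cartilage than in bone (24.3% and 22.9%), and for 8 and 7 as lower in MC than in condylar cartilage (22.8% and 22.8%). Some separations from bone rest on very few fragments. In WT, MC replicate 1 had 1 Snorc fragment against 0 in bone and 3 Matn1 fragments against at most 2. In S252W, where bone had 0 of each, MC replicate 2 had 1 Ucma fragment and MC replicate 3 had 3 of Snorc and 3 of Scrg1. Condylar replicate 3 of S252W also had 3 Scrg1 fragments. In S252W, 1 was higher in MC than in condylar cartilage without overlap (27.7%), again Prg4.

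Between bone and condylar cartilage the members other than Ucma and Prg4 differed in both genotypes, and Ucma in S252W. Acan was higher in condylar cartilage by 9.66 on the log2 scale in WT and 11.35 in S252W (SE 0.63 and 0.92, adjusted p = 1.03e-08 and 9.54e-08), and Hapln1 by 7.87 and 7.25 (SE 0.43 and 0.41, adjusted p = 1.63e-09 and 1.74e-09). Matn3 was higher by 7.97 and 8.9 (SE 0.67 and 0.77) and Matn4 by 6.4 and 5.03 (SE 0.56 and 0.44). Comp (11.59 and 9.42, SE 1.22 and 0.87) and Matn1 (10.47 and 10.94, SE 1.71 and 1.7) rest on a few fragments in bone. Over the fits that left out a library these 12 changes all passed, and those of Acan ranged from 9.26 to 10.11 in WT and 10.7 to 12.35 in S252W, those of Comp in S252W from 8.68 to 10.28, those of Matn3 from 7.51 to 8.62 and 8.44 to 9.78, and those of Matn1 from 9.37 to 11.76 and 10.34 to 12.06. Ucma in WT was at 1.51 (95% interval -0.62 to 3.64) and did not pass (adjusted p = 0.261). Scrg1 in WT condylar cartilage was at 124 times WT bone (95% counting interval 33.8 to 1030.3, from 195 and 2 fragments), and limma called it (adjusted p = 5.5e-05).

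**Figure D4:**
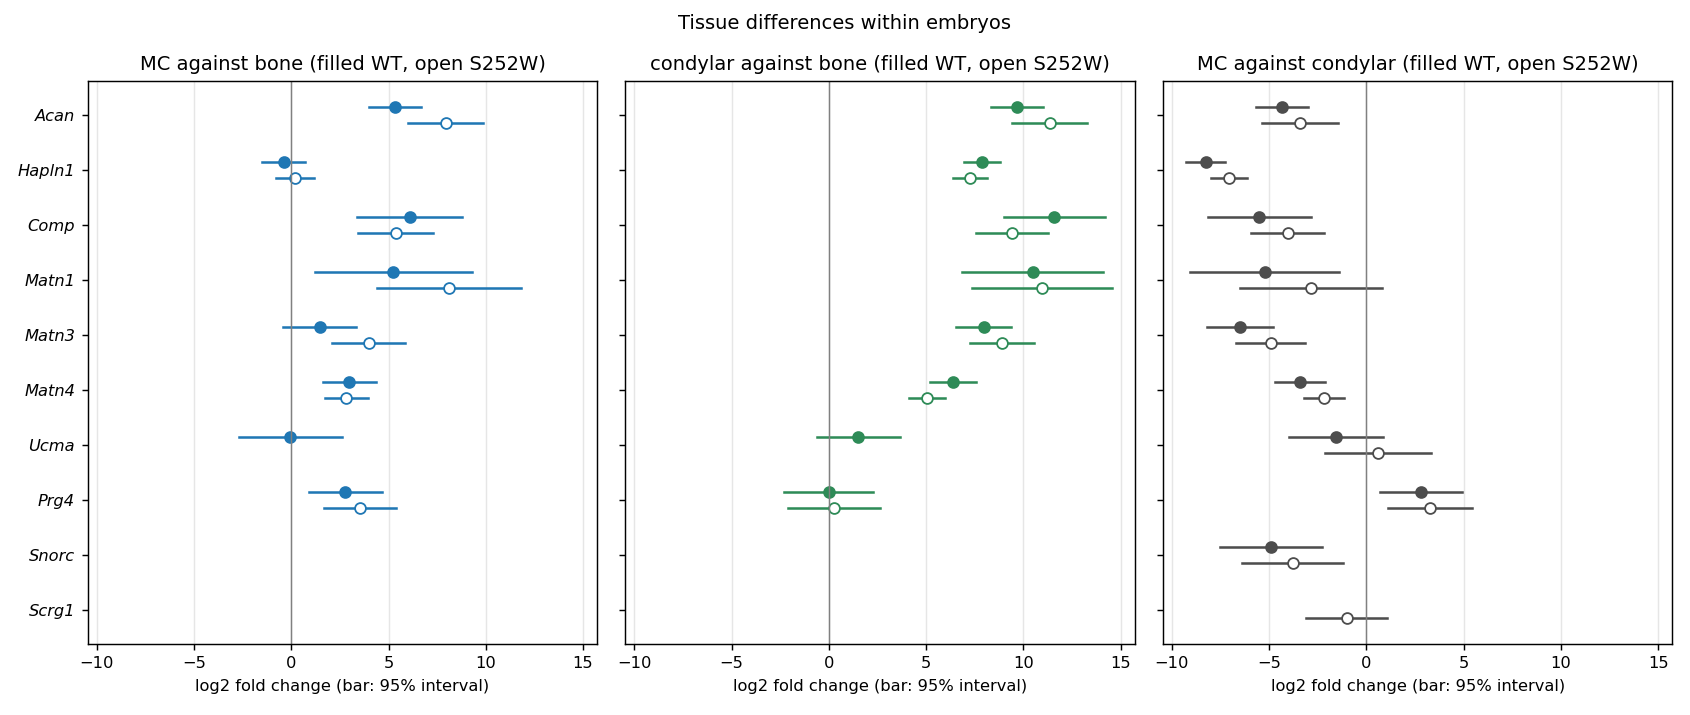
Log2 fold change of each gene between tissues within embryos (point) with its 95% interval (bar), filled in WT and open in S252W. Comparisons against a group with 3 or fewer fragments in all are left out (Snorc, Scrg1 and, in S252W, Ucma against bone, and Scrg1 in WT MC); in MC against condylar cartilage Prg4 alone lies wholly to the right of 0.

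None of the 10 members passed limma's test for genotype in any tissue in the 2 fits used here, and 2 passed under an alternative, Scrg1 in MC and Ucma in bone. In MC, the estimates for S252W against WT were all above 0 in limma, with Matn1 at 2.86 (95% interval 0.67 to 5.05, adjusted p = 0.215), Comp at 1.27 (0.1 to 2.43, adjusted p = 0.292), Hapln1 at 1.18 (0.05 to 2.3, adjusted p = 0.304) and Acan at 0.79 (-0.21 to 1.79, adjusted p = 0.44). Of the 6 members, 0 passed at an adjusted p below 0.05, beside 0% of all genes, and 3 had an unadjusted p below 0.05, beside 15.4% of all genes. Matn4 was at 0.86 (-0.12 to 1.85, adjusted p = 0.385) and Snorc at 1.19 (-1.03 to 3.41, adjusted p = 0.627). Among the other members Ucma was at 3.09 (0.56 to 5.62, adjusted p = 0.247) and Matn3 at 1.31 (-0.21 to 2.83, adjusted p = 0.41). Prg4 was at 1.07 (-0.49 to 2.62, adjusted p = 0.52), and edgeR's test and DESeq2 put it at -0.06 and -0.08. Scrg1 in S252W MC was at 32 times WT MC (95% counting interval 8.44 to 271, from 53 and 2 fragments), and limma's test over libraries did not call it (adjusted p = 0.275). The ratio was 15.9 (4.18 to 134) without WT MC replicate 1, which had no fragment, 21 (5.1 to 185) without S252W MC replicate 1, and 48.4 and 48 without WT MC replicate 2 or 3. It was also the only member whose MC libraries did not overlap between genotypes, beside 6.9% of all genes higher without overlap. The same difference passed with DESeq2 (4.79, SE 1.36, adjusted p = 0.0243) and not with edgeR's test (4.73, adjusted p = 0.109) or any other alternative tried.

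Most of these MC estimates shrank without the library that was low in WT or the library that was high in S252W. Without WT MC replicate 1, Acan was at 0.28, Hapln1 at 0.08, Comp at 0.3 and Matn1 at 0.63, and Snorc and Prg4 turned to -0.56 and -0.7, while Matn4 went up to 1.16. Ucma was then at 1.5 and Matn3 at 0.49. Without S252W MC replicate 1, Acan turned to -0.03 and Hapln1, Comp and Matn1 were at 0.45, 0.54 and 1.55, with Matn4 at 0.34, Snorc at 0.44, Prg4 at 0.43, Ucma at 2.15 and Matn3 at 0.2. The chondrocyte markers stood in the same order: they summed to 154, 818 and 828 FPKM in WT MC and to 2146, 596 and 578 in S252W MC, and the part of this in the members' levels was not tested.

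**Figure D5:**
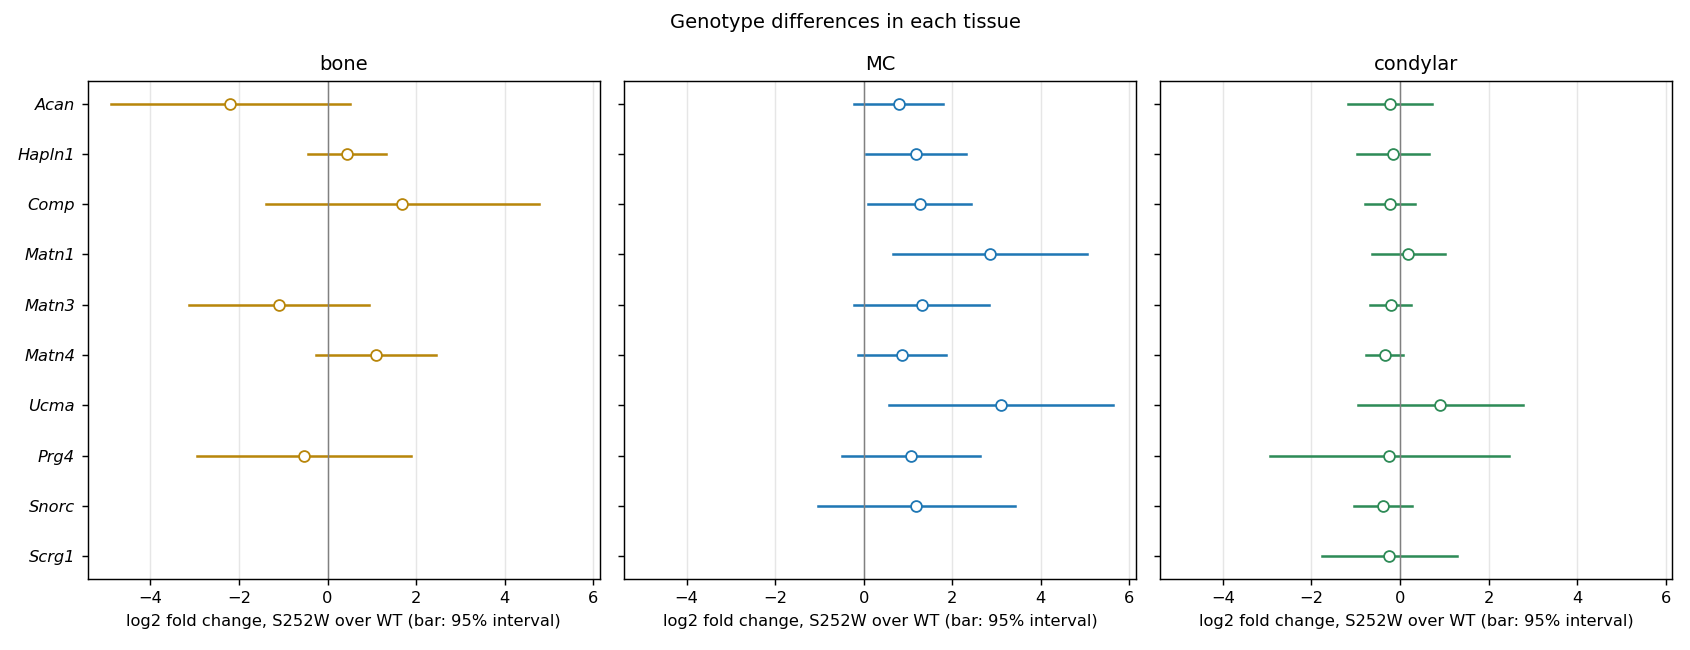
Log2 fold change of S252W over WT for each gene (point) with its 95% interval (bar) in bone, MC and condylar cartilage. Genes with 3 or fewer fragments in all in a group, or with at most 3 per library in each genotype, are left out of that panel; the intervals of condylar cartilage all cover 0, and those of MC lie mostly to the right of it.

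In condylar cartilage, the genotypes were close. The 6 members of the main fit had estimates from -0.38 for Snorc to 0.19 for Matn1, with adjusted p = 0.998 throughout, 0 called beside 0% of all genes and 0 with an unadjusted p below 0.05 beside 3.06%. The intervals were narrow for the most abundant genes, -0.97 to 0.65 for Hapln1 (estimate -0.16), -1.17 to 0.72 for Acan (-0.23), -0.79 to 0.35 for Comp (-0.22) and -0.67 to 0.26 for Matn3 (-0.21), so that an increase of 1 lay outside all of them and a change of -1 inside that of Acan alone. Somewhat below them in level, Matn1 had an interval that included 1 (-0.64 to 1.02) and Snorc one that included -1 (-1.04 to 0.28). Matn3 and Matn4 were lower in every S252W library than in every WT library, by 95.5 ± 4.08 against 82.5 ± 7.35 FPKM and 16.3 ± 1.88 against 12.8 ± 1.42 FPKM (SD, n = 3), beside 5.34% of all genes lower without overlap. Neither passed the test. Ucma was at 0.91 (-0.95 to 2.77), and Prg4 and Scrg1 were each at -0.24 (-2.94 to 2.46 and -1.77 to 1.29), with adjusted p = 0.999 for the 3. Both of the latter were above 0 with edgeR's test (0.37 and 0.23) and DESeq2 (0.43 and 0.21).

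In bone, most members had few fragments, with Hapln1 the exception (439 to 1264 per library). Acan was at 0.686 ± 0.217 FPKM in WT and 0.214 ± 0.184 in S252W (SD, n = 3), lower in every S252W library, with an estimate of -2.2 (95% interval -4.89 to 0.5, adjusted p = 0.725). S252W bone replicate 3 had 4 Acan fragments against 36 to 102 in the other bone libraries. Ucma fragments numbered 7, 3 and 6 in WT bone and 0 in each S252W bone library. Limma did not call the difference (adjusted p = 0.433), nor did edgeR's test or DESeq2, and with sample quality weights it passed (adjusted p = 0.0235). Of the 10 members 2, Acan and Ucma, were lower in S252W bone without overlap, beside 10.3% of all genes, and 0 of the 6 tested in the main fit passed, beside 0.0872% of all genes. At an unadjusted p below 0.05 that count was 0, beside 8.13% of all genes. Hapln1 was at 7.36 ± 1.25 FPKM in WT and 10 ± 1.5 in S252W bone (estimate 0.45, 95% interval -0.44 to 1.33, adjusted p = 0.872). Comp was at 1.69 (-1.38 to 4.77, adjusted p = 0.854), Matn4 at 1.09 (-0.26 to 2.44, adjusted p = 0.728), Matn3 at -1.09 (-3.12 to 0.94, adjusted p = 0.878) and Prg4 at -0.54 (-2.95 to 1.88, adjusted p = 0.979). The Comp estimate rests on 6 fragments in WT. No genotype estimate is given for Matn1, Scrg1 and Snorc, which had at most 3 fragments in every bone library.

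Whether the tissue differences themselves depended on genotype was tested as a difference of differences. For MC against bone the smallest p among the 6 members of the main fit was that of Acan, with a difference of 2.62 (95% interval 0.27 to 4.98, adjusted p = 0.499), and 0 of 6 members passed, beside 0.0349% of all genes. In the fit that kept all 10, Ucma and Scrg1 had smaller unadjusted p-values that did not pass either (limma, adjusted p = 0.292 and 0.329), and no fold is given because S252W bone had no fragment of either. Hapln1 was at 0.59 (adjusted p = 0.828), Matn4 at -0.16 (adjusted p = 0.967), Matn3 at 2.52 (adjusted p = 0.53) and Prg4 at 0.75 (adjusted p = 0.881), and no estimate is given for Comp, Matn1 and Snorc, which had at most 3 fragments in each bone library of 1 or both genotypes (adjusted p = 0.917, 0.753 and 0.878). For MC against condylar cartilage the estimates of the 6 ran from 0.94 (Acan) to 2.39 (Matn1), with Hapln1 at 1.2, Comp at 1.45, Matn4 at 1.22 and Snorc at 1.11, with adjusted p from 0.526 to 0.851, and 0 passed, beside 0% of all genes. Matn3 was at 1.59, Ucma at 2.15 and Prg4 at 0.47 (adjusted p = 0.644, 0.679 and 0.93), and Scrg1 did not pass (adjusted p = 0.357). These estimates moved with single libraries. With WT MC replicate 1 left out, Acan was at 0.49, Hapln1 at 0.18, Comp at 0.69, Matn1 at 0.79, Snorc at 0.02, Matn3 at 0.96 and Ucma at 0.53, while Matn4 was at 1.39 and Prg4 turned to -1.02. Without S252W MC replicate 1 the first 5 were at 0.15, 0.45, 0.47, 0.93 and 0.08, with Matn4 at 0.64, Matn3 at 0.22, Ucma at 1.32 and Prg4 at -0.68. In MC against bone, Acan was then at 1.7 and Matn3 at 1.14, and Hapln1 turned to -0.21, as it did without WT MC replicate 1 (-0.4). For condylar cartilage against bone 0 of 6 passed, beside 0% of all genes, with Acan at 1.68, Hapln1 at -0.61 and Matn4 at -1.38, and with Matn3 at 0.93 and Prg4 at 0.28. The adjusted p was 1 for all 10 members. At an unadjusted p below 0.05 these counts were 1, 0 and 0, beside 9.12%, 10.3% and 2.86% of all genes.

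Other genes of cartilage matrix were read from a list of 20, of which 16 were tested. This list and those below were chosen with earlier results of these data known, so their counts are a description. Of each list only the called genes of lowest p are named, so a gene given for 1 genotype may have been called in the other too. In MC against bone 7 were higher and 2 lower in WT, beside 15.9% and 16.1% of all genes tested, and 11 higher and 3 lower in S252W, beside 18.2% and 17.9%. In MC against condylar cartilage 4 were higher and 5 lower in each genotype, beside 23.3% and 22.7% of all genes in WT and 22.5% each way in S252W. Versican (Vcan), a relative of aggrecan found in looser tissue, was higher in MC than in condylar cartilage by 2.79 in WT (SE 0.28, adjusted p = 5.85e-07) and 2.96 in S252W (SE 0.28, adjusted p = 3.24e-07). Thrombospondin 3 (Thbs3), of the family of Comp, was higher in MC than in bone by 1.84 in WT and 2.85 in S252W (adjusted p = 2.09e-05 and 6.03e-07) and higher than in WT condylar cartilage by 1.45 (adjusted p = 5.71e-05). Otor, a small secreted protein of cartilage, was higher in S252W MC than in condylar cartilage by 4.43 (adjusted p = 7.98e-06), and its relative Mia was higher in WT MC than in bone by 3.24 (adjusted p = 0.0018). Susd5, with a predicted hyaluronan-binding link domain, was higher in S252W MC than in bone by 5.87 (SE 0.81, adjusted p = 3.9e-05). Thbs1 was lower in MC than in condylar cartilage by a log2 change of -3.19 in WT and -2 in S252W (adjusted p = 8.01e-07 and 8.32e-05), Fbln7 by -3.23 in S252W (adjusted p = 1.41e-05), and Tnc lower than in bone by -1.78 and -3.07 (adjusted p = 0.000649 and 5.93e-06). Without S252W MC replicate 1, Susd5 was at 5.06 and Fbln7 at -3.9 (-3.93 without condylar replicate 1), and Otor was at 5.17 without condylar replicate 2. Tnc in WT was at -2.57 without WT MC replicate 1, and Mia was at 4.03 and 2.28 without WT bone replicate 1 or 3, and all of these passed. Hapln4, a link protein of brain, had no fragment in WT MC and 2 in S252W MC.

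Most of the tested enzymes and transporters that build chondroitin sulfate and hyaluronan were lower in MC than in condylar cartilage. Of 25 listed genes 23 were tested, and 18 were lower and 1 higher in WT MC, with a median of -2.03, and 16 lower and 1 higher in S252W, with a median of -2.1, beside 22.7% lower and 23.3% higher of all genes in WT and 22.5% each way in S252W. Against bone, in contrast, 3 were higher and 8 lower in WT MC and 5 higher and 6 lower in S252W MC, beside 15.9% and 16.1% of all genes in WT and 18.2% and 17.9% in S252W. Slc35d1, which carries nucleotide sugars into the endoplasmic reticulum, was lower in MC than in condylar cartilage by -3.61 in WT and -3.34 in S252W (adjusted p = 6.69e-09 and 1.12e-08) and higher than in bone by 1.17 in each genotype (adjusted p = 0.00203 and 0.0013). Papss2, which makes the sulfate donor, was at -4.7 in WT MC against condylar cartilage (SE 0.31, adjusted p = 9.15e-09). Ugdh, which makes UDP-glucuronic acid, was at -3.05 in S252W MC against condylar cartilage (adjusted p = 7.37e-09), and below bone by -0.91 in WT and -1.41 in S252W (adjusted p = 0.00297 and 9.39e-05). Chsy1, a chondroitin polymerase, was below bone in WT MC (-1.2, adjusted p = 0.00354), and Chst13, a chondroitin 4-O-sulfotransferase, had no fragment in S252W MC. Xylt1, which adds the first sugar of the chain, was above bone in S252W MC (2.5, adjusted p = 0.000803). The gene higher in MC than in condylar cartilage was Dse, an epimerase that turns chondroitin into dermatan sulfate (1.46 in WT and 1.06 in S252W, adjusted p = 9.35e-05 and 0.00129), and in WT it was also above bone (0.87, adjusted p = 0.0086). That last call was lost without WT bone replicate 1 (0.72, adjusted p = 0.0605) or WT MC replicate 3 (0.71, adjusted p = 0.0575), and Xylt1 was at 1.86 without S252W MC replicate 1 (adjusted p = 0.0257).

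Of the 11 listed genes that act on the breakdown of proteoglycans, 8 were tested, and 5 were higher and 1 lower in MC than in condylar cartilage in each genotype, with medians of 1.48 and 1.37, beside 23.3% higher and 22.7% lower of all genes in WT and 22.5% each way in S252W. Adamts4, an aggrecanase, was higher by 3.27 in WT (SE 0.36, adjusted p = 1.98e-06), and Adamts5, the other main aggrecanase, by 3.5 in S252W (SE 0.48, adjusted p = 1.58e-05). Both also stood higher in MC in the other genotype. Adamts4 was at 3.6 to 4.62 FPKM in S252W MC against 0.696 to 1.11 in S252W condylar cartilage. Adamts5 was at 1.67 to 5.95 FPKM in WT MC against 0.185 to 0.604 in WT condylar cartilage. Htra1, a secreted serine protease, was higher by 2.45 and 2.67 (adjusted p = 3.69e-05 and 2.41e-05). Timp3, an inhibitor of metalloproteinases that these counts include, was lower by -0.67 in WT (adjusted p = 0.00742), and Mmp13, a collagenase, by -2.9 in S252W (adjusted p = 0.0435). Against bone, where 15.9% and 18.2% of all genes were higher and 16.1% and 17.9% lower, 1 gene was higher, Adamts1 (1.61 in WT and 1.95 in S252W, adjusted p = 0.0155 and 0.00298), and 2 were lower, Mmp13 (-6.94 and -8.51, adjusted p = 5.63e-05 and 9.91e-05) and Adamts9 (-1.18 and -1.82, adjusted p = 0.00778 and 0.000461). The WT change of Adamts1 rested on replicate 3: its WT MC libraries were at 4.17, 6.95 and 44.3 FPKM against 3.77 to 4.53 in WT bone, and the call was lost without MC replicate 3 (0.47, adjusted p = 0.38) or bone replicate 3 (0.9, adjusted p = 0.214). Without the same libraries the WT call of Adamts9 was lost too (-0.78 and -0.9), and it was at -1.79 without WT MC replicate 1. Timp3 was lost without WT condylar replicate 3 (-0.45, adjusted p = 0.0786). Against condylar cartilage the Mmp13 call was lost without S252W MC replicate 1, 2 or 3 (-2.97, -2.8 and -3.11), S252W condylar replicate 2 or 3 (-2.96 and -1.68), WT MC replicate 2, WT condylar replicate 1 or WT bone replicate 3 (-2.94, -2.9 and -2.89), and it was -4.27 without S252W condylar replicate 1. Against bone, Mmp13 was at -8.31 without WT MC replicate 1, and at -7.53 and -10.22 without S252W bone replicate 1 or 3. Adamts5 was at 2.9 without S252W condylar replicate 1. The 5 macrophage and osteoclast markers summed to 42.6 to 72.3 FPKM in MC and 8.19 to 14.9 in condylar cartilage, the 6 of perichondrium and tendon to 205 to 329.7 and 70.7 to 134, and the 4 of endothelium to 4.81 to 18.9 and 1.31 to 5.3. Their part in these differences was not tested.

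Of 8 transcription factors of cartilage 7 were tested. In MC 5 and 4 were above bone in WT and S252W, beside 15.9% and 18.2% of all genes, and none below, beside 16.1% and 17.9%. Against condylar cartilage 5 were lower and 1 higher in each genotype, beside 22.7% and 23.3% of all genes in WT and 22.5% each way in S252W. Sox9, the master regulator of chondrocytes, was lower in WT MC than in condylar cartilage by -3.19 (SE 0.35, adjusted p = 1.65e-06) and higher in S252W MC than in bone by 1.82 (SE 0.33, adjusted p = 0.000508). Sox5, its partner, was higher in MC than in bone by 2.87 in WT and 2.98 in S252W (adjusted p = 0.000259 and 2.38e-05). Sox6, the third of the trio, was lower in MC than in condylar cartilage by -1.43 and -1.53 (adjusted p = 1.61e-05 and 7.67e-06), as was Runx3 in S252W (-2.52, adjusted p = 2.07e-05). Gli3, a mediator of hedgehog signals, was higher in WT MC than in bone by 0.69 and than in condylar cartilage by 0.83 (adjusted p = 0.00425 and 0.000479), and Barx1 was higher in S252W MC than in condylar cartilage by 1.08 (adjusted p = 0.0212). The Barx1 call was lost without S252W MC replicate 1 or 3 (1.14 and 0.86) or S252W condylar replicate 1 or 3 (1.14 and 0.8). Sox9 against condylar cartilage was at -2.51 and Sox5 against bone at 3.53 without WT MC replicate 1, and Runx3 was at -3.43 without S252W MC replicate 1.

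The genes whose levels ran most like the mean pattern of the 6 members of the main fit over the 18 libraries were Susd5 (Pearson r = 0.991), Wnk4 (0.989), Col27a1 (0.985), Nid2 (0.984) and Arhgef1 (0.984). These values describe libraries of 3 tissues that fall into separate clusters, and they carry no test. Among the members, Acan ran closest to Comp, Matn1 and Snorc (r = 0.96 each) and less closely to Hapln1 (0.74), while Prg4 had r = 0.2 with Acan and -0.33 with Hapln1.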

How the data were processed

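The authors aligned paired-end reads from laser-captured, amplified RNA (NuGEN Ovation, Nextera XT) with STAR (mm10) and summed fragments over the exons of each gene with featureCounts (version 1.5.0-p1, Ensembl 75), without strand and without multimapping fragments; the deposited counts are raw. Amplified RNA without molecular identifiers means that floors and counting intervals cover counting error only. Here, counts were scaled by TMM, a gene entered the main fit if 9 or more of the 18 libraries had over 1 FPKM (11469 genes, 6 of the 10 members), and limma-voom was fitted (limma 3.58.1, edgeR 4.0.16, R 4.3.3), with the embryo as a block for tissue contrasts and with 6 group means for genotype contrasts. For 4 members the fit over edgeR's filterByExpr (14881 genes) was used. Adjusted p-values are Benjamini-Hochberg over all genes, with 0.05 as threshold, and intervals are 95%. The embryos are separate animals, and their identity was read from sample codes shared by the 3 tissues. Deviations of tissues of the same embryo correlated by 0.001 on average (-0.086 to 0.105), so the embryo block rests on the design. All 10 members were described in every comparison, by fragments or a limit where a group had too few for a fold, and of each further list the 2 called genes of lowest p per direction in MC against bone and against condylar cartilage. Members and lists were chosen with earlier results of these data known. Scripts were tested on simulated data. DESeq2 (1.42.0) and edgeR's quasi-likelihood test served as alternatives.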

Additional observations from a re-analysis of the deposited data

How the results depend on the processing

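The tissue comparisons of the members kept their counts within 1.5 times under all alternatives except in MC against bone. There the S252W count of 5 became 9 with filterByExpr or no filter, where all 10 members were tested, and 8 without the ribosomal RNA repeat and mitochondrial genes, an alternative chosen after seeing the data, where 9 were tested. With only the libraries of the tissues compared it was 2 in WT and 2 in S252W, where 3 members were tested. For genotype, the count over the 6 members of the main fit was 0 in every tissue, and 2 of the other members were called under 1 alternative each, Ucma in bone with sample quality weights (adjusted p = 0.0235) and Scrg1 in MC with DESeq2 (4.79, adjusted p = 0.0243). Leaving out single libraries moved no count beyond 1.5 times. Without the replicate block, Matn1 in MC against bone in WT (4.54) and Prg4 in WT MC against bone (2.08) and condylar cartilage (2.22) were not called, and Matn1 in S252W MC against condylar cartilage (-3.21) was. The embryo as a random block (correlation -0.025) changed the same 4 calls (4.53, 2.08, 2.21 and -3.21, adjusted p = 0.0924, 0.112, 0.0987 and 0.000387). Neither changed another call. Same-numbered embryos of the 2 genotypes share only a number, with a mean correlation of 0.036 (-0.152 to 0.277).

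All estimates that changed sign were uncalled, and the cause was not tested. Under edgeR's test, DESeq2, quality weights, only the tissues compared and the fit without the embryo of WT MC replicate 1, Ucma in WT MC against bone was 0.2, 0.06, 0.16, 0.31 and 1.54. Under edgeR's test and DESeq2, Prg4 for S252W against WT was -0.06 and -0.08 in MC and 0.37 and 0.43 in condylar cartilage (0.14 with a replicate block), and its genotype effect in MC minus condylar was -0.23 and -0.28. Scrg1 for genotype in condylar cartilage was 0.23, 0.21, 0.01 with weights and 0.18 with a replicate block. With weights, Hapln1 in S252W MC against bone was -0.06 and Prg4 in WT condylar cartilage against bone 0.1. Without that embryo, Prg4 in WT condylar cartilage against bone was 0.17, Hapln1 in WT MC against bone 0.63, Ucma in WT MC against condylar cartilage 0.01, and the genotype effects were -0.44 for Hapln1, 0.22 for Matn4 and -0.72 for Prg4 in MC minus bone and -0.82 for Prg4 in MC minus condylar.

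Leaving out single libraries gave ranges across 0 for MC against bone of Hapln1 (-0.96 to 0.58 in WT, -0.61 to 0.54 in S252W) and Ucma in WT (-1.69 to 1.52), and for MC against condylar cartilage of Ucma (-3.03 to 0.02 in WT, -0.27 to 1.46 in S252W). Prg4 in condylar cartilage against bone ranged from -0.8 to 0.8 in WT and from -0.56 to 1.69 in S252W. For S252W against WT the ranges were -0.03 to 1.19 for Acan, -0.56 to 2.23 for Snorc and -0.7 to 1.75 for Prg4 in MC, and -0.82 to 0.84 for Prg4 and -1.37 to 0.84 for Scrg1 in condylar cartilage. Genotype effects in MC minus bone ranged from -0.4 to 1.13 for Hapln1, -0.79 to 0.34 for Matn4 and -0.56 to 1.62 for Prg4, and for Prg4 from -1.02 to 1.4 in MC minus condylar and -0.55 to 1.71 in condylar minus bone. Ucma, Scrg1 and Prg4, and Comp, Matn1 and Snorc in bone, had few fragments, which limits the precision of their changes.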
